A study of Homo sapiens with 8 samples.

Results

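HGF, FGFR1, GAB2, IGFBP2, WT1, STAB1 and PGBD5 are 7 genes linked to growth factor signalling or to the expression signature of acute promyelocytic leukemia. They were taken by symbol from the 60483 gene identifiers counted in 8 RNA-seq libraries of NB4 cells, an established human line of that leukemia, and all 7 were found. The members were chosen by their measured expression in these same libraries, above all by how far the mutants F158E and ΔIDR lay apart, so the values of the 7 genes are given as a description, without p-values. The lists of other genes below were also chosen with earlier results of these data known. In each list up to 3 genes are named for the smallest adjusted p between the mutants, so those p-values only describe them. All 4 groups, with 2 libraries each, carried a lentiviral knock-down of the PML/RARα fusion of the line itself and were taken after 72 h of infection. The endogenous protein was replaced by nothing (empty vector), by an HA-tagged whole PML/RARα (called the full-length fusion below), or by an HA-tagged F158E or ΔIDR mutant of it. The submitters describe both mutants as unable to phase separate. The labels do not state whether a group's 2 libraries are separate cultures, so the spread between them, on which each p-value below rests, may be technical. Levels are CPM, counts scaled to the library total with TMM factors, and changes are edgeR log2 fold changes ± SE, with 2 libraries a group. The SE comes from a joint fit of all 8 libraries and not only from the scatter within the groups compared.

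PML/RARα joins a nuclear body protein to a retinoic acid receptor and alters transcription at receptor and myeloid target genes. Receptor tyrosine kinases such as MET, the receptor of hepatocyte growth factor, and the FGF receptors bind a ligand outside the cell and recruit docking adaptors such as GAB2, which pass the signal on through phosphatases and lipid kinases. IGFBP2 is a secreted carrier of insulin-like growth factors, WT1 is a zinc finger transcription factor that is high in many acute leukemias, STAB1 is a scavenger receptor, and PGBD5 derives from a piggyBac transposase.

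Gene counts summed to 16779364 to 21965389 in a library. RARA, which covers the normal gene and any fusion or transgene RNA, averaged 23.1 CPM with empty vector, 32.3 with F158E, 77.0 with the full-length fusion and 1358 with ΔIDR, and PML averaged 51.9, 65.9, 124 and 442 CPM in that order. The groups thus differed in the amount of PML and RARA RNA as well as in the construct, and the part of that amount in the values below was not tested. Of 12 promyelocyte markers, 11 passed the filter on low counts, MPO at 3449 to 4139 CPM, while ELANE, the neutrophil elastase gene, had at most 2 counts in a library, and genes listed near 0 below may likewise be missed by the counting. The summed level of the 12 ran from 6343 to 6374 CPM with the full-length fusion, 8900 to 9330 with F158E or empty vector and 12040 to 12050 with ΔIDR. Most of that sum was MPO and SRGN, the latter at 2215 CPM with the full-length fusion, 3864 with F158E, 4369 with empty vector and 6403 with ΔIDR. From F158E to ΔIDR, edgeR called 6 of the 11 higher and 1, CTSG, lower (log2 change -0.63 ± 0.12). The other 4, MPO among them, did not pass. Of all tested genes 9.17% were called higher and 9.37% lower. Summed markers of T and NK cells (10 genes) were at 26.4 to 26.6 CPM with ΔIDR and 34.7 to 40.7 elsewhere, of B cells (8 genes) at 11.9 to 14.9 with the full-length fusion and 4.75 to 7.98 elsewhere, of erythroid cells (10 genes) at 1.32 to 4.09, and of epithelial cells and fibroblasts (10 genes) at 9.80 to 22.4. TRBC2 and MS4A1 were at 0 in all 8 libraries. Of 6 genes of the embryonic kidney line from which lentivirus is commonly made, LIN28B was at 57.6 to 85.3 CPM as group means and the others had at most 1 count. The part of these cell markers in the values below was not tested. In bulk RNA, fewer cells of a type and less RNA per cell cannot be told apart.

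All 7 genes passed the filter, with 44 to 3465 counts in a library, as did 13982 genes in all. Each of the 7 was lower with ΔIDR than with F158E, by 1.66-fold to 3.18-fold, and in each the 2 libraries of these groups did not overlap. That is the contrast on which the list was built, and the counts only describe it: edgeR called 7 of 7, none higher and all lower, where 18.5% of all tested genes were called, 9.17% higher and 9.37% lower, and 54.2% had groups that did not overlap. Against the full-length fusion, ΔIDR gave 7 of 7 called, 1 higher and 6 lower (49.9% of all tested genes, 24.9% in each direction), and 7 without overlap (72.7%). F158E against the full-length fusion gave 5 of 7, 2 higher and 3 lower (43.9%, with 22.2% higher and 21.8% lower), and 6 without overlap (69.2%). The full-length fusion against empty vector gave 5 of 7, 4 higher and 1 lower (48.6%, with 24.2% higher and 24.4% lower), and 6 without overlap (71.7%). Against empty vector, F158E gave 6 of 7, 5 higher and 1 lower (8.65%, with 3.98% higher and 4.67% lower), and 7 without overlap (48.8%). ΔIDR against empty vector gave 6 of 7, none higher and 6 lower (10.3%, with 5.06% higher and 5.23% lower), and 6 without overlap (48.1%). The members were chosen from these same libraries, so calls with a library left out also only describe them. The calls of all 7 for ΔIDR against F158E and against the full-length fusion held with any 1 library left out. Lost when 1 was left out were the calls of HGF and FGFR1 for ΔIDR against empty vector, WT1 and PGBD5 for F158E against empty vector, WT1 and STAB1 for F158E against the full-length fusion, and GAB2 for the full-length fusion against empty vector. The 6 comparisons share their libraries and are not independent of each other.

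**Figure D1:**
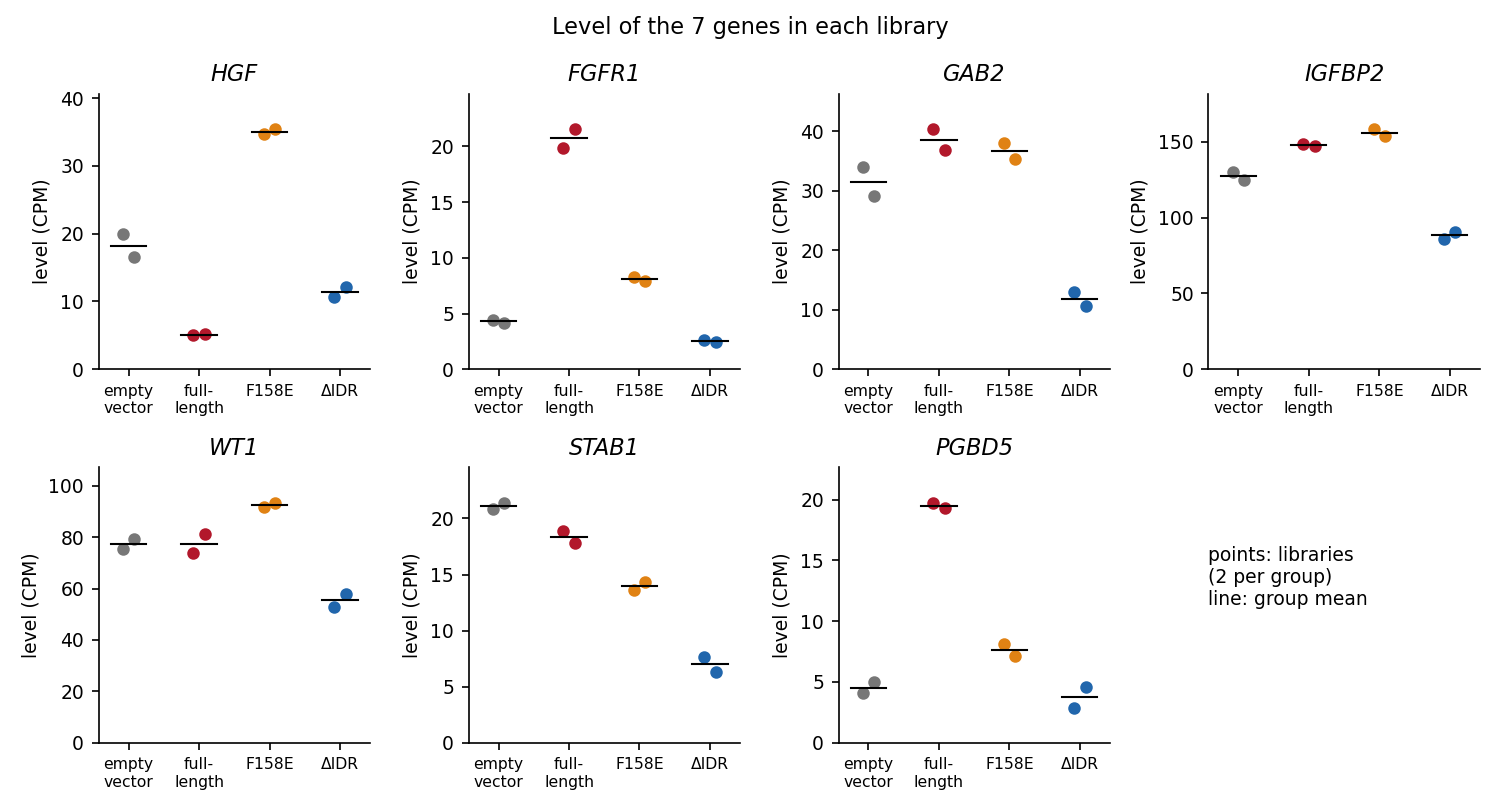
Level in CPM (linear axis from 0) of each of the 7 genes in the 2 libraries of each group, with a line at the group mean. The ΔIDR libraries lie under the F158E libraries in every panel, HGF is lowest with the full-length fusion, at 5.06 and 5.13 CPM, and FGFR1 and PGBD5 are highest there.

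HGF (ENSG00000019991.14, chromosome 7, positions 81699008 to 81770438 of GRCh38, minus strand), the secreted ligand of MET, was lowest with the full-length fusion. It stood at 5.06 and 5.13 CPM with the full-length fusion, 10.7 and 12.1 with ΔIDR, 16.6 and 19.9 with empty vector and 34.8 and 35.4 with F158E. No pair of groups overlapped. F158E cells held 6.87-fold the HGF of full-length cells (log2 change 2.78 ± 0.15), and ΔIDR cells 2.25-fold (1.17 ± 0.17). Both mutants therefore lay above the full-length fusion, but on opposite sides of empty vector: F158E was 1.92-fold above it (0.94 ± 0.13) and ΔIDR 1.59-fold below it (-0.67 ± 0.14). HGF was alone among the 7 in being higher with ΔIDR than with the full-length fusion. The RefSeq window before its transcript start (GRCh38.p14) held a retinoid receptor core word and a core word of PU.1, the myeloid transcription factor at whose sites PML/RARα is known to bind. Each is shown with its flanks, the word in capitals, at chr7:81770116-81770145 and chr7:81770181-81770210 on the minus strand.
HGF, retinoid receptor word: accgtaagagggAGTTCAgacctagatctt
HGF, PU.1 word: gggggggcgagtGAGGAAaggagggggctg
Their first bases lie 86 and 151 bases upstream of the RefSeq transcript start, at position 81770047. Both sites lie inside the gene span given above, and the window overlaps an annotated exon. They are thus upstream of that start only, not of the whole annotated gene.

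The receptor side of the HGF axis was nearly uncounted. MET itself had at most 2 counts in a library, the related receptor gene MST1R at most 8, and HGFAC, HPN and ST14, proteases that activate HGF, at most 1, 0 and 5; these genes were not tested and were picked out after their values were seen. Of 26 other genes of the axis 16 were tested. From F158E to ΔIDR 2 were called higher and 2 lower, with a median log2 change of 0.03 against -0.01 over all genes. The called share was 25% of the 16, beside 18.5% of all tested genes. MACC1, a regulator of MET transcription, went opposite to HGF: it averaged 39.2 ± 1.47 (SD) CPM with the full-length fusion, 14.7 ± 1.00 with ΔIDR, 10.1 ± 0.871 with empty vector and 5.44 ± 1.81 with F158E, and was higher with ΔIDR than with F158E by 1.43 ± 0.16 (edgeR adjusted p = 1.64e-11). CD44, a co-receptor of MET, was lower with ΔIDR than with F158E by a log2 change of -0.66 ± 0.12 (adjusted p = 9.04e-06), and PTPRJ, a phosphatase that acts on MET, was higher by 0.32 ± 0.05 (adjusted p = 2.48e-08). The full-length fusion against empty vector gave 5 higher and 4 lower, 56.2% of the 16 beside 48.6% of all tested genes. PLAU, the urokinase gene, fell from 148.7 ± 10.4 to 29.1 ± 0.00943 CPM there, a log2 change of -2.36 ± 0.07, and stood at 97.3 ± 0.845 with F158E and 104.1 ± 9.24 with ΔIDR, a difference between the mutants that did not pass (adjusted p = 0.324). RANBP9, CBL and PTPN1, the other best counted genes of the axis, did not pass between the mutants either (adjusted p = 0.639, 0.975 and 0.944).

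FGFR1 (ENSG00000077782.18, chromosome 8, minus strand), a receptor tyrosine kinase for fibroblast growth factors, was highest with the full-length fusion. It stood at 19.9 and 21.5 CPM with the full-length fusion, 7.95 and 8.31 with F158E, 4.17 and 4.42 with empty vector and 2.47 and 2.65 with ΔIDR. The 4 groups were in a clear order, with no overlap between any pair. Full-length cells held 4.82-fold the level of empty vector cells (log2 change 2.27 ± 0.20). From full-length, F158E was 2.55-fold lower (-1.35 ± 0.18) and ΔIDR 8.09-fold lower (-3.02 ± 0.21). The mutants fell on opposite sides of empty vector, F158E 1.89-fold above (0.92 ± 0.20) and ΔIDR 1.68-fold below (-0.75 ± 0.24), the latter from 44 and 54 counts against 82 and 79. In 138 exonic bases FGFR1 overlaps LETM2 on the other strand, which the kit, unable to mark strand, cannot separate; LETM2 had 10 to 30 counts in a library.

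FGFR1 was the best counted of the FGF receptor genes with a kinase domain. FGFR2 had no count in any library, and FGFR3 and FGFR4, picked out after their values were seen, stood at 1.14 to 1.87 and 1.26 to 2.80 CPM as group means. Of 22 genes of the FGF family 3 passed the filter, FGF5, FGF11 and FGF18, also picked out after their values were seen, each with at most 42 counts in a library. FGFRL1, a receptor without a kinase domain, followed FGFR1 in part: it averaged 48.6 ± 1.78 CPM with the full-length fusion, 38.3 ± 2.09 with empty vector, 37.2 ± 1.08 with F158E and 26.9 ± 0.0185 with ΔIDR, and was lower with ΔIDR than with F158E by a log2 change of -0.47 ± 0.10 (edgeR adjusted p = 1.03e-04). FRS2, the docking protein that couples FGF receptors to GRB2 and was also picked out after its values were seen, moved the other way. It fell from 49.8 ± 2.34 CPM with empty vector to 16.4 ± 3.13 with the full-length fusion (log2 change -1.60 ± 0.11, adjusted p = 1.64e-23) and was at 40.5 ± 3.60 with F158E and 42.8 ± 0.677 with ΔIDR, which did not differ past the threshold (adjusted p = 0.655). Over the 17 tested genes of the FGF axis, full-length against empty vector gave 3 higher and 5 lower, with a median of -0.19 against 0.00 over all genes; without full-length replicate 1 it gave 5 higher, and with a mean of at least 1 CPM 3 lower. In the main fit of full-length against empty vector 47.1% of the 17 were called, beside 48.6% of all tested genes. ΔIDR against F158E gave 1 higher, SPRED2, an inhibitor of the ERK pathway (0.19 ± 0.06), and 1 lower, FGFRL1 (11.8% called, beside 18.5% of all tested genes). The better counted CEP43, FGFR1OP2, FIBP and SPRED1 did not pass (adjusted p = 0.632, 0.772, 0.776 and 0.182). SPRED2 was not called without F158E replicate 1 or without ΔIDR replicate 2.

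GAB2 (ENSG00000033327.11, chromosome 11, positions 78215297 to 78418348, minus strand), a docking adaptor of receptor tyrosine kinases and cytokine receptors, was set apart by ΔIDR alone. It stood at 10.6 and 13.0 CPM with ΔIDR, 29.1 and 34.0 with empty vector, 35.3 and 38.0 with F158E and 36.8 and 40.3 with the full-length fusion. F158E and full-length overlapped, and empty vector lay just below both. ΔIDR was 3.13-fold below F158E (log2 change -1.65 ± 0.12), 3.29-fold below full-length (-1.72 ± 0.12) and 2.69-fold below empty vector (-1.43 ± 0.12). F158E and full-length were 1.05-fold apart (-0.07 ± 0.11).

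Among its family members and partners, calls between the mutants went both ways. GAB1 had at most 1 count, and GAB3, picked out after its values were seen, was at 10.7 ± 0.739 CPM with F158E and 12.9 ± 0.405 with ΔIDR (log2 change 0.27 ± 0.16, edgeR adjusted p = 0.27). Of 31 other adaptor and partner genes 25 were tested, and ΔIDR against F158E gave 4 higher and 4 lower, with a median of -0.04. That is 32% of the 25, beside 18.5% of all tested genes. PTPN11, the phosphatase SHP2 that GAB2 recruits, was lower by a log2 change of -0.09 ± 0.03 (adjusted p = 0.024), at 488 ± 13.0 against 519 ± 24.4 CPM. PTPN6, the related phosphatase SHP1 that damps cytokine receptor signals, was higher by 0.40 ± 0.05 (adjusted p = 1.34e-10), at 169 ± 0.107 against 129 ± 3.93 CPM. The inositol phosphatase gene INPP5D was lower by a log2 change of -0.21 ± 0.04 and the adaptor gene GRB10 by -0.31 ± 0.06. Averages of INPP5D were 270.5 CPM in full-length cells, 248.6 with F158E, 247.7 with empty vector and 215.1 with ΔIDR, the order seen for GAB2. PIK3CD, a catalytic subunit gene of the lipid kinase PI3K, was higher by 0.17 ± 0.05 (adjusted p = 0.0048), and the inositol phosphatase gene INPPL1 did not pass (adjusted p = 0.104). GRB2, which links GAB2 to receptors, did not pass between the mutants (0.07 ± 0.03, adjusted p = 0.143) and was lower with the full-length fusion than with empty vector by a log2 change of -0.36 ± 0.04 (adjusted p = 2.04e-15).

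**Figure D2:**
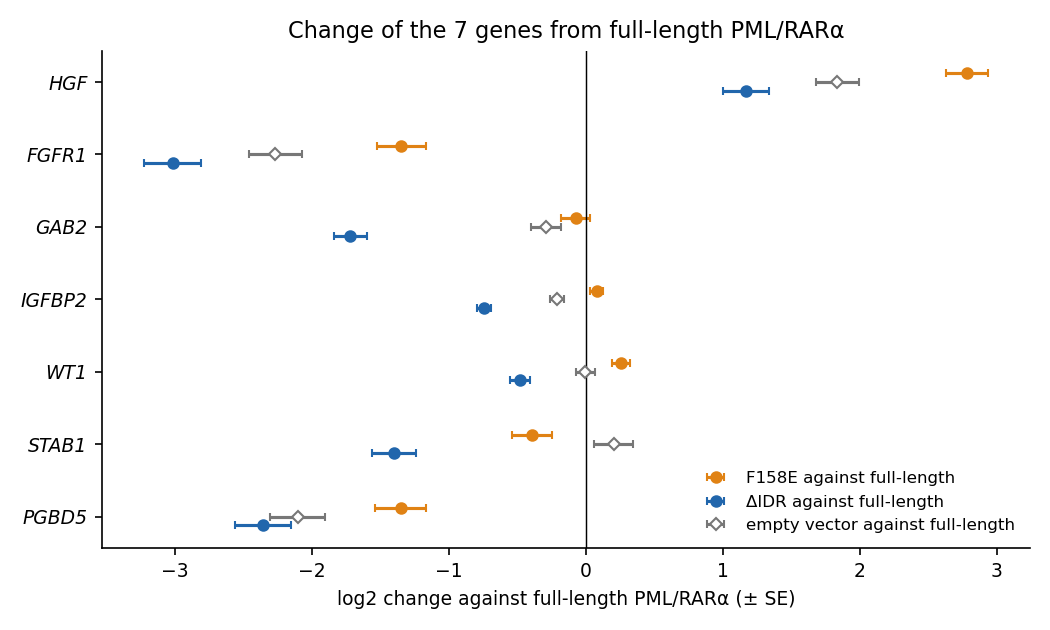
Log2 change (± SE) of each gene from the full-length fusion to F158E (orange), ΔIDR (blue) and empty vector (open diamonds). HGF lies right of 0 in all 3, FGFR1 and PGBD5 lie left of 0 in all 3, and for GAB2, IGFBP2 and STAB1 the ΔIDR point stands apart at -1.72, -0.74 and -1.40.

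IGFBP2 (ENSG00000115457.8, chromosome 2, positions 216632828 to 216664436, plus strand) was the best counted of the 7. It stood at 85.9 and 90.6 CPM with ΔIDR, 125.0 and 130.3 with empty vector, 147 and 148 with the full-length fusion and 153.8 and 158.2 with F158E. ΔIDR was low in both libraries, and the other 3 groups lay close to each other without overlapping. ΔIDR was 1.76-fold below F158E (log2 change -0.82 ± 0.05) and 1.67-fold below full-length (-0.74 ± 0.05), while F158E and full-length were 1.06-fold apart (0.08 ± 0.05). RefSeq lists several starts for IGFBP2, and only the window of the first held a retinoid receptor word. The 250 bases before this first start, at chr2:216632578-216632827 of GRCh38.p14 on the plus strand, are printed because they lie outside annotated exons and hold that word, here on the opposite strand and in capitals.
IGFBP2 upstream: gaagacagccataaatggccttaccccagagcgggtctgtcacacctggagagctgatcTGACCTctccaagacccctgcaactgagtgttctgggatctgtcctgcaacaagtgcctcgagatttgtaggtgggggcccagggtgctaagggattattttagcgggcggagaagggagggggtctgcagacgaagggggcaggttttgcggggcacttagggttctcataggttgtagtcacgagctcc

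The rest of the IGF axis contained another binding protein with the same split between mutants. IGFBP4 averaged 150.3 ± 0.929 CPM with F158E, 113.7 ± 3.17 with empty vector, 104.3 ± 0.116 with the full-length fusion and 69.7 ± 2.30 with ΔIDR. It rose with F158E from full-length by 0.53 ± 0.05 (edgeR adjusted p = 4.01e-14), fell with ΔIDR by 0.58 ± 0.06 (adjusted p = 7.34e-15), and differed between the mutants by -1.11 ± 0.06 (adjusted p = 1.71e-30). Of all tested genes, 0.644% were called in opposite directions in the mutants against full-length, and WT1 is another of them. IGFBP7, picked out after its values were seen, was higher with ΔIDR than with F158E, by 0.38 ± 0.13 (adjusted p = 0.0319), and IGFBP1, IGFBP3, IGFBP5 and IGFBP6 had at most 1 count. The ligand genes IGF1 and IGF2 had at most 0 and 1. Among receptors, INSR was lower with ΔIDR than with F158E, at 27.2 ± 1.92 against 41.1 ± 1.41 CPM (log2 change -0.60 ± 0.10, adjusted p = 2.06e-06), and IGF1R, at 116 ± 4.44 against 111 ± 1.80, did not pass (adjusted p = 0.505), nor did IGF2R (adjusted p = 0.594). The receptor substrates split: IRS1, picked out after its values were seen, was lower by a log2 change of -0.74 ± 0.17, and IRS2 higher by 0.22 ± 0.05. Of the other tested genes of the axis 62.5% were called between the mutants, beside 18.5% of all tested genes. In all, 8 of 23 other genes of the axis were tested and gave 2 higher and 3 lower between the mutants, with a median of 0.05; without F158E replicate 2, IGFBP7 and IRS2 both lost their call, and without either ΔIDR library the higher count was 1.

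WT1 (ENSG00000184937.11, chromosome 11, positions 32387775 to 32435630, minus strand) showed the smallest spread of the 7, from 52.7 and 58.0 CPM with ΔIDR to 91.6 and 93.3 with F158E. Empty vector, at 75.3 and 79.2 CPM, and full-length PML/RARα, at 73.7 and 81.2, overlapped and differed by a log2 change of 0.00 ± 0.07. From this shared level F158E was 1.19-fold higher than full-length (0.26 ± 0.07) and ΔIDR 1.39-fold lower (-0.48 ± 0.07), so that the mutants lay on opposite sides of both other groups and 1.66-fold apart (-0.74 ± 0.07). WT1-AS, the non-coding RNA that starts beside WT1 on the other strand and shares 113 exonic bases with it, was at 7.03 ± 1.10 CPM with F158E and 2.98 ± 0.894 with ΔIDR (log2 change -1.22 ± 0.26, edgeR adjusted p = 1.57e-04), at 39 to 171 counts in a library. Reads from their shared stretch cannot be told apart without strand.

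Of 14 other genes linked to WT1 12 were tested, and 5 were called higher with ΔIDR than with F158E and 1, WT1-AS, lower, with a median of 0.24; without either F158E library, without ΔIDR replicate 2 or with DESeq2 the higher count was 3. In the main fit the called share was 50% of the 12, beside 18.5% of all tested genes. BASP1, a cofactor that turns WT1 into a repressor, was at 105.8 ± 0.153 CPM with ΔIDR and 73.5 ± 5.07 with F158E (0.53 ± 0.06, edgeR adjusted p = 1.48e-11), with empty vector at 72.6 ± 2.93 and full-length at 132.7 ± 5.73. CITED2, a transcriptional coregulator that binds WT1, was higher with ΔIDR by 0.27 ± 0.05 (adjusted p = 1.53e-06). WTAP, a subunit of the RNA methylation complex, the transcription factor gene SP1 and TET3, a DNA demethylation enzyme gene, did not pass (adjusted p = 0.588, 0.965 and 0.731). The related genes TET2 and TET1, picked out after their values were seen, were higher with ΔIDR by 0.39 ± 0.09 and 0.36 ± 0.13 (edgeR adjusted p = 0.00104 and 0.0373).

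STAB1 (ENSG00000010327.9, chromosome 3, positions 52495338 to 52524495, plus strand) was lowest with ΔIDR. It stood at 20.9 and 21.4 CPM with empty vector, 17.8 and 18.9 with the full-length fusion, 13.6 and 14.4 with F158E and 6.32 and 7.66 with ΔIDR. Its groups did not overlap, though the full-length fusion and empty vector were only -0.20 ± 0.14 apart on the log2 scale, a difference edgeR did not call. ΔIDR was 2.01-fold below F158E (log2 change -1.01 ± 0.16) and 2.64-fold below full-length (-1.40 ± 0.16), and F158E was 1.31-fold below full-length (-0.39 ± 0.14). At its far end STAB1 shares 111 exonic bases with NT5DC2 on the other strand, which had 1997 and 2409 counts with ΔIDR and 3026 to 4220 elsewhere; its part in STAB1 counts was not tested. The 250 bases before its start, at chr3:52495088-52495337 on the plus strand, lie outside annotated exons and hold both kinds of word, in capitals.
STAB1 upstream: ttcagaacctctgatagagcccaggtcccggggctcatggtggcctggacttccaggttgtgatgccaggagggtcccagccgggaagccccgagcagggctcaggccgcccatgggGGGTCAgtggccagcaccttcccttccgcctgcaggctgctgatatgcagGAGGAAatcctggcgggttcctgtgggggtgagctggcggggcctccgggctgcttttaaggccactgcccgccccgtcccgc

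Few other scavenger receptors were counted, 7 of 19 being tested. Between the mutants 28.6% of the 7 were called, beside 18.5% of all tested genes. SCARB1, the HDL receptor, was at 287 ± 3.21 to 306 ± 8.06 CPM in the 4 groups and did not pass between the mutants (edgeR adjusted p = 0.144), nor did SCARB2, a lysosomal membrane protein gene (0.20 ± 0.08, adjusted p = 0.0817). CD36 and MARCO were called higher with ΔIDR than with F158E, at 2.15 ± 0.968 against 0.228 ± 0.194 CPM and 1.22 ± 0.278 against 0.183 ± 0.0647, which is at most 47 and 31 counts in a library. Neither was called where a mean of at least 1 CPM was required, a filter that left MARCO untested. Without F158E replicate 1 or without ΔIDR replicate 2 the count of higher receptors was 1. CD163L1 (-0.50 ± 0.24) and AGER (-0.12 ± 0.25), the receptor of glycated proteins, did not pass (adjusted p = 0.149 and 0.819).

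PGBD5 (ENSG00000177614.8, chromosome 1, positions 230314482 to 230426371, minus strand) had the pattern of FGFR1. It stood at 19.3 and 19.7 CPM with the full-length fusion, 7.17 and 8.13 with F158E, 4.10 and 4.96 with empty vector and 2.90 and 4.58 with ΔIDR. Empty vector and ΔIDR overlapped (log2 change -0.25 ± 0.23), and the other groups did not overlap. Full-length was 4.30-fold above empty vector (2.10 ± 0.20), F158E 2.55-fold below full-length (-1.35 ± 0.19) and ΔIDR 5.13-fold below it (-2.36 ± 0.20). The ΔIDR libraries, at 48 and 100 counts, differed more from each other than those of any other group, and the difference of ΔIDR from F158E of -1.01 ± 0.21 ran from -1.40 to -0.74 as single libraries were left out.

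Of 27 other genes that derive from DNA transposases 23 were tested. For ΔIDR against F158E 8.7% of the 23 were called, beside 18.5% of all tested genes, with a list median of 0.00. The 2 called were lower, ZBED4 (-0.22 ± 0.07, edgeR adjusted p = 0.0175) and POGK (-0.24 ± 0.06, adjusted p = 0.00161). Without ΔIDR replicate 2 neither was called, and without either F158E library the lower count was 1. The better counted ZBED5, POGZ and CENPB did not pass (adjusted p = 0.408, 0.128 and 0.787). The piggyBac relatives PGBD1, PGBD2 and PGBD4, picked out after their values were seen and at 9.83 to 11.7, 4.02 to 5.32 and 3.42 to 6.34 CPM as group means, were not called between the mutants or between the full-length fusion and empty vector. In that second comparison the list gave 2 higher and 5 lower, 30.4% beside 48.6% of all tested genes. POGK rose by 0.32 ± 0.06 and ZBED5 fell by 0.52 ± 0.08. Without empty vector replicate 2 or full-length replicate 2 only 1 was higher.

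**Figure D3:**
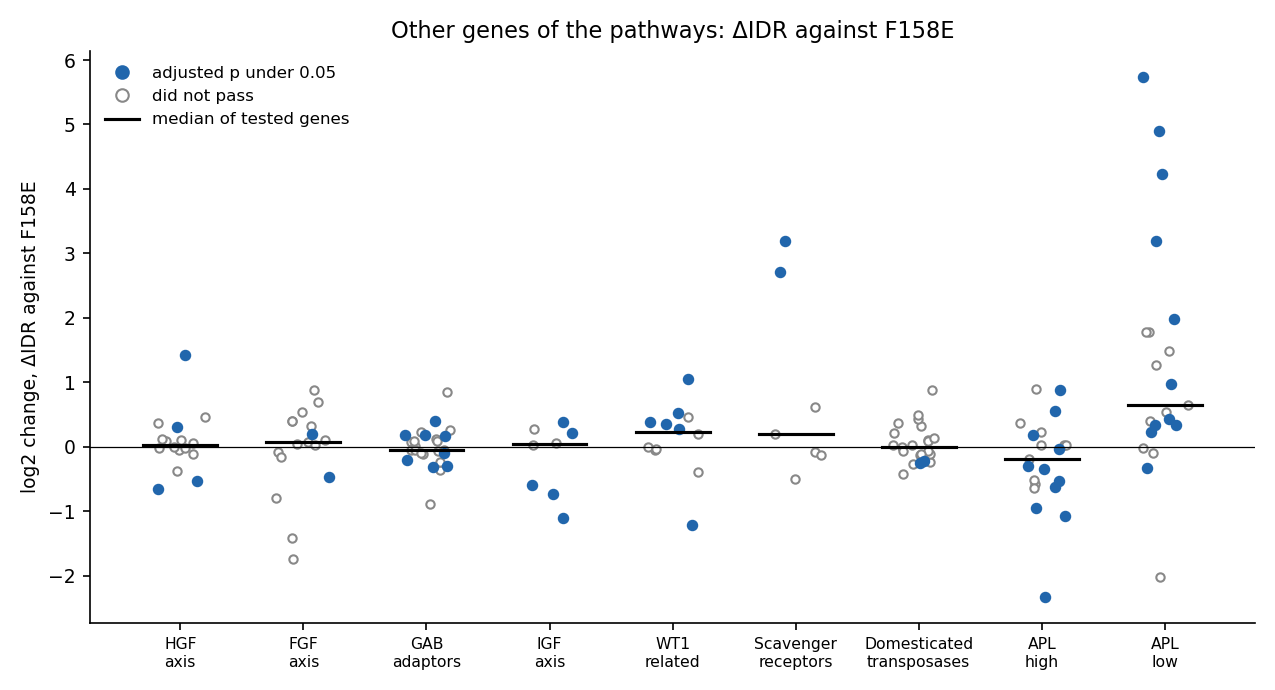
Log2 change from F158E to ΔIDR of each tested gene in 9 lists, the 7 genes left out; filled points passed an edgeR adjusted p of 0.05 and the line is the median of the tested genes. The HGF, FGF, IGF and adaptor lists spread to both sides of 0, and the genes described as low in promyelocytic leukemia (APL low) lie mostly above it.

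A pair of wider lists placed the 7 beside other genes of the disease. Of 33 further genes described as high in acute promyelocytic leukemia 21 were tested, and 3 were called higher and 8 lower with ΔIDR than with F158E, with a median of -0.19 against -0.01 over all genes. That is 52.4% of the 21, beside 18.5% of all tested genes. EBF3, a transcription factor gene, had the order of FGFR1, at 87.7 ± 1.08 CPM with the full-length fusion, 48.3 ± 2.15 with F158E, 44.0 ± 0.235 with empty vector and 22.9 ± 2.25 with ΔIDR (-1.07 ± 0.09 between the mutants, edgeR adjusted p = 1.30e-17). The laminin gene LAMC1 was lower with ΔIDR by a log2 change of -0.35 ± 0.05 (adjusted p = 1.11e-09). ANXA8, an annexin gene, was lower by -0.95 ± 0.12, though a near-identical copy makes its count uncertain. PRTN3, the proteinase 3 gene of primary granules, was higher by 0.88 ± 0.04 (adjusted p = 1.45e-37), and MPO did not pass (adjusted p = 0.176). TRIB3, a pseudokinase gene, was higher by 0.19 ± 0.06 and the calreticulin gene CALR lower by a log2 change of -0.04 ± 0.01. Without F158E replicate 1 or without ΔIDR replicate 1 the count of lower genes was 5. FGF13, TRH and TAFA5 had no count in any library. Against empty vector, the 21 gave 3 higher and 8 lower with ΔIDR, 52.4% called beside 10.3% of all tested genes. With F158E they gave 1 higher and 4 lower (23.8% beside 8.65%), and with the full-length fusion 5 higher and 7 lower (57.1% beside 48.6%).

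Of 30 genes described as low in the disease 21 were tested, and 10 were called higher and 1 lower with ΔIDR than with F158E, with a median of 0.65. That is 52.4% of the 21, where 9.17% of all tested genes were called higher and 9.37% lower. The calprotectin genes S100A8 and S100A9 were among the higher ones, at 11.3 ± 1.02 against 0.206 ± 0.0322 CPM and 50.5 ± 2.22 against 2.67 ± 0.744, and the integrin genes ITGAX and ITGB2 were higher by 0.97 ± 0.11 and 0.43 ± 0.05. FCN1, the ficolin gene of monocytes, was higher by 0.34 ± 0.09 and HOXA10 by 0.23 ± 0.08, and MNDA did not pass (adjusted p = 0.856). LYZ, the lysozyme gene, was the 1 called lower (-0.33 ± 0.09), and was not called without F158E replicate 2. Their part in the values of the 7 genes was not tested. Against empty vector, the 21 gave 3 higher and 3 lower with ΔIDR (median 0.3), 28.6% called beside 10.3% of all tested genes. With F158E they gave 0 higher and 6 lower (median -0.265), 28.6% beside 8.65%. With the full-length fusion they gave 2 higher and 10 lower (median -0.479), 57.1% beside 48.6%.

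Likeness to each of the 7 was ranked over the 8 libraries, by Pearson correlation of log2 CPM, among the 920 protein-coding genes whose average level reached 2 log2 CPM and whose group means spanned 1 or more. These are descriptions, since all genes share the same 8 libraries and the 4 groups. FGFR1 was most like TBC1D4, a Rab GTPase activator (r = 0.996), PALD1 (0.989) and EPB41L2, a membrane skeleton gene (0.989), and TBC1D4 averaged 65.6 CPM in full-length cells, 31.5 with F158E, 21.4 with empty vector and 15.5 with ΔIDR. PGBD5 was most like MICAL2, an actin-oxidizing enzyme gene (0.993), ABI2 (0.987) and CCDC112 (0.986). HGF was most like HES1, a Notch target gene (0.971), FAM110B (0.969) and HDC, the histamine-forming enzyme gene (0.965), with HES1 at 10.3 CPM in F158E cells, 7.68 in empty vector, 5.16 in ΔIDR and 2.79 in full-length cells. GAB2 was most like RUNX3, a transcription factor gene (0.973), PDE9A (0.972) and STARD8 (0.971), IGFBP2 most like CHAT (0.957), N4BP2L1 (0.956) and IGSF3 (0.954), and STAB1 most like GSN, an actin-severing protein gene (0.987), GJA1 (0.931) and RAB3C (0.924). The gene nearest to WT1 was IGFBP4 (0.977), ahead of EVPL (0.965) and EMID1 (0.964).

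**Figure D4:**
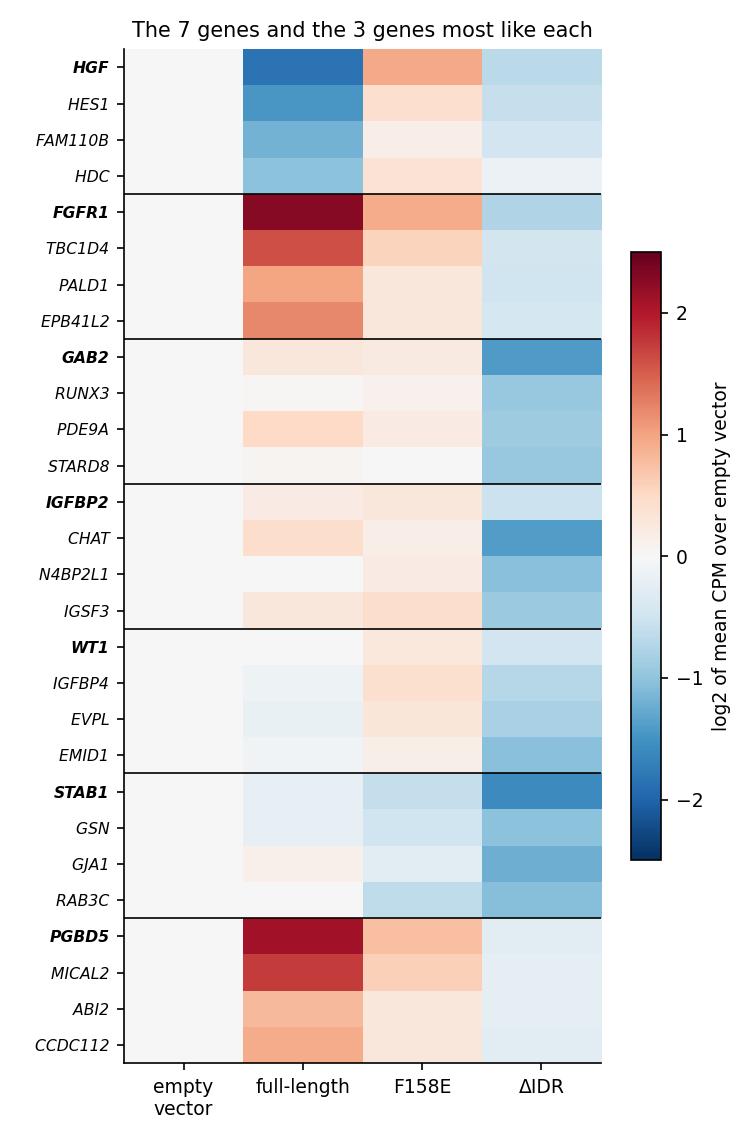
Log2 of the mean CPM of each group over that of empty vector, for the 7 genes (bold) and the 3 genes most like each by correlation over 8 libraries. The HGF block is blue with the full-length fusion and red with F158E, the FGFR1 and PGBD5 blocks are reddest with full-length, and the GAB2, IGFBP2 and WT1 blocks are blue with ΔIDR.

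Compared per kilobase of exon, to set genes side by side, IGFBP2 was at 31.0 CPM per kb in full-length cells, WT1 at 18.8, GAB2 at 5.69, STAB1 and PGBD5 at 1.73, FGFR1 at 1.5 and HGF at 0.519. With F158E the HGF value was 3.57, above FGFR1 at 0.587, PGBD5 at 0.677 and STAB1 at 1.32. Lengths came from GENCODE release 29, which may differ from the annotation used for counting.

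The RefSeq windows of 300 bases around transcript starts were searched on both strands for 4 retinoid receptor core words and a core word of PU.1. The receptor words were AGGTCA, found in 13.8% of windows, GGGTCA, found in 14.1%, AGTTCA, found in 10.4%, and GGTTCA, found in 8.62%, and that of PU.1 was GAGGAA. The words do not share bases in the windows printed. Windows were listed for 6 of the 7 genes, 12 in all. A receptor word lay in 5 of the 12 and in 38.6% of 35116 windows of all genes, the PU.1 word in 4 and in 27.9%, and both in 3, those of HGF, STAB1 and a WT1 start, and in 11.1%. A match is only a run of letters, and its absence from the GAB2 and PGBD5 windows says nothing of binding elsewhere.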

How the data were processed

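RNA-seq counts for 8 NB4 libraries were analysed. The authors deposited a raw count for each gene and library, unnormalized. The submitters' processing notes name hg38 and GRCh38, while aligner, counter and annotation release are not given in the sources used here. Per the labels' protocols, ribosomal RNA was depleted and the kit does not mark strand. Of recorded reads 87.9% to 88.7% were assigned to genes; reads the file headers' closing lines call ambiguous made up 3.37% to 3.47%.

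Symbols came from a reference table (56321 of 60483 identifiers) and GENCODE release 29. edgeR 4.0.16 in R 4.3.3 fitted all 8 libraries together with TMM factors, filterByExpr and quasi-likelihood tests in 6 comparisons, with Benjamini-Hochberg adjustment over 13982 genes and calls under 0.05. The 7 genes and all gene lists were chosen with earlier results of these data known. Besides the 7, the rule named PML, RARA, overlapping genes, the 3 genes most like each member and, in each list, the 5 best counted and the 3 called genes of smallest adjusted p between the mutants; tested pathway genes outside it are marked. Tested on simulated data for ΔIDR against F158E over 13982 genes, the fit recovered 62% of genes changed by 0.5 log2, 64% at 1 and 80% at 2. Only 50, 100 and 50 genes were changed at these sizes, in ΔIDR alone, while 18.5% of genes were called in the data. The rates therefore need not hold for the real comparison. Libraries of the same replicate number did not deviate together (correlations -0.0163 to 0.0206), so no replicate block was used. DESeq2 1.42.0 and other settings were alternatives.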

Additional observations from a re-analysis of the deposited data

How the results depend on the processing

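The direction of each called difference of the 7 genes was kept under DESeq2, RLE and upper-quartile factors, other filters, fits of only the 2 groups compared, a larger prior count and each left-out library. Between ΔIDR and F158E the 7 genes stayed called in every one of these. Against a fold change of 1.5, 4 of 7 were called there, and 222 of all 13982 tested genes. The list was built on that contrast in these same libraries, so these calls only describe it and give no support. Calls that did not hold were GAB2 between the full-length fusion and empty vector (0.29, lost with DESeq2, without empty vector replicate 2 and without full-length replicate 1), FGFR1 for ΔIDR against empty vector (-0.75, lost without a low-count filter, in the fit of 2 groups and without any 1 of their 4 libraries), HGF for ΔIDR against empty vector (lost without empty vector replicate 1), STAB1 and WT1 for F158E against full-length (both lost without full-length replicate 1, STAB1 also without F158E replicate 1 and without a filter), and WT1 and PGBD5 for F158E against empty vector (both lost without empty vector replicate 1, and without F158E replicate 2 and 1). The cause was not tested.

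Counts of called genes with 1 library left out ran from 5689 to 6869 for full-length against empty vector, 5041 to 6216 for F158E and 6016 to 6974 for ΔIDR against full-length, 612 to 1265 (main 1210) for F158E and 864 to 1471 (main 1439) for ΔIDR against empty vector, and 1861 to 2594 between the mutants. Lowest were 612 and 666 without empty vector replicates 1 and 2, and 746 without either F158E library. Against a fold change of 1.5 the counts were 1328, 933, 1611, 24, 110 and 222 in the same order. With the replicate block they were 6778, 6107, 6929, 1212, 1433 and 2599, and no call among the 7 genes changed. Moderation with the robust option, chosen after seeing the data, gave 6782, 6126, 6950, 1208, 1439 and 2592. Counts in a gene list moved by over 1.5 times in 123 of 1728 recomputations. Depth limits FGFR1 and PGBD5 most, at 44 to 100 counts in the ΔIDR libraries.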
